A study of Mus musculus with 4 samples.

Results

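The cells described here were tumour-infiltrating CD8 T cells from the CD137 plus library, divided by whether the deposited table held a value for Tnfrsf9, the gene of CD137 (4-1BB). A cell entered when it had a value for Cd8a or Cd8b1, the genes of the CD8 chains, which kept 2747 of the 2766 cells of this library and of the 6965 cells of the series. Of these, 1247 had a Tnfrsf9 value (positive cells) and 1500 had none (negative cells). The positive cells were further divided into 652 with a corrected Tnfrsf9 count of 3 or more and 595 with a count of 1 to 2. The split was chosen from the measured Tnfrsf9 values themselves, so the Tnfrsf9 difference between the sides is a description of the rule.

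The mice were C57BL/6 bone marrow chimaeras. They were irradiated with 8 Gy, received marrow of Cd137fl/fl ROSA26tomato donors (CD137 plus) together with Cd4cre Cd137fl/fl ROSA26tomato donors (CD137 minus), and carried a subcutaneous B16K1 tumour for 21 days. B16K1 is a variant of the B16 mouse melanoma. CD137 plus cells therefore carry floxed Cd137 alleles without the Cre transgene, and CD137 minus cells carry the same alleles with a Cre driven by Cd4 sequences, which is active in developing T cells. CD8 cells of 7 mice were pooled, with hashtag antibodies, into 1 suspension per tissue and CD137 status, and each gave 1 droplet library of RNA 5′ ends. The table assigns no cell to a mouse, both sides come from 1 library, and the sorting text and the sample names disagree on which cells were tomato positive, so groups follow the CD137 status. The labels name no marker for host T cells that survived irradiation. With 1 library there was no replicate and no test: levels are given side by side, and the 95% exact binomial intervals on shares of cells cover counting error only.

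CD137 is a costimulatory receptor of the TNF receptor superfamily. Resting T cells carry little of it, and signals from the T cell receptor switch it on for a limited time. Once bound by its ligand CD137L, the product of Tnfsf9, it recruits TRAF adaptors and activates NF-kB, which favours survival, proliferation and cytokine production, and in tumours it is used as a mark of T cells that have recently met antigen.

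Tnfrsf9 was detected in 45.4% (95% interval 43.5 to 47.3) of CD8 cells of the tumour CD137 plus library and in 15.99% (13.998 to 18.1) of those of the tumour CD137 minus library. In spleen the shares were 4.05% (19 of 469 cells) in CD137 plus and 0.859% (21 of 2444 cells) in CD137 minus. The order of the 4 libraries follows the labels within each tissue. RNA 5′ ends outside the deleted exons can still be counted in cells with the deletion, so the values in the CD137 minus libraries do not check the deletion. As a measure of background, cells with both Lef1 and Ccr7, genes of circulating naive and central memory cells, had a Tnfrsf9 value in 14.7% (63 of 430, 11.4 to 18.4) of cases in the tumour CD137 plus library and in 3.33% (10 of 300) in the spleen CD137 plus library. Their median total was 3888 corrected counts in the tumour library, against 3700 over all its CD8 cells. A value at that rate in such cells cannot be told apart from free RNA, and a cell without a value is not shown to lack the transcript.

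In the tumour CD137 plus library 270 cells had a corrected Tnfrsf9 count of 1, 325 had 2, 197 had 3, 140 had 4 and 85 had 5, and the highest count was 24. In the tumour CD137 minus library the highest count was 7, with 106 cells at 1 and 61 at 2. The summed Tnfrsf9 level was 911 CPM (counts scaled to 1e+06 in all) on the positive side, with 1358 CPM in cells with 3 or more and 412 CPM in cells with 1 to 2. Positive cells of the CD137 minus library reached 346 CPM. Cells on each side of the threshold between 2 and 3 were common, with 325 cells just below it and 197 just above.

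**Figure D1:**
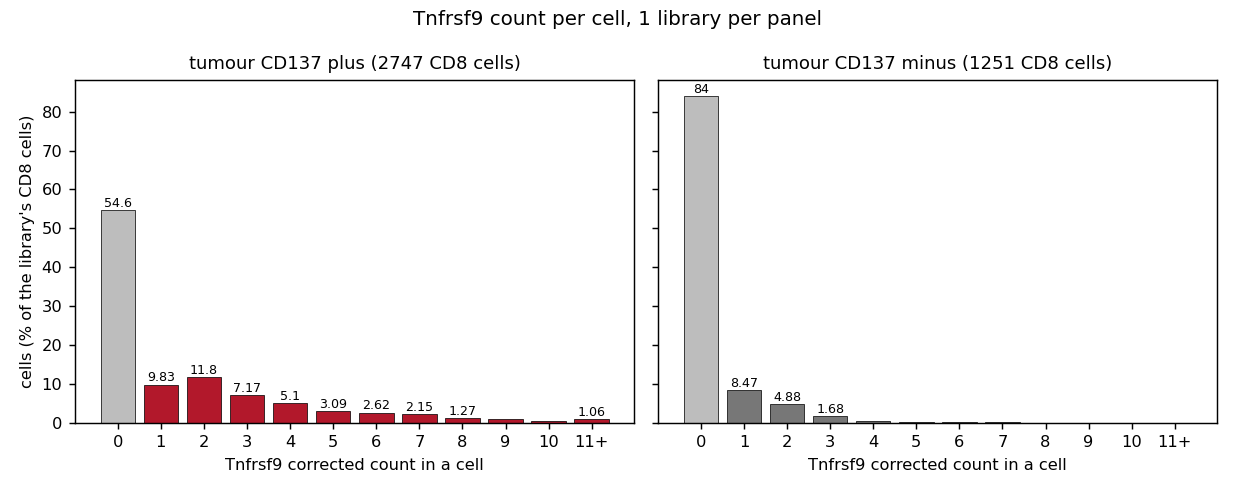
Share of CD8 cells (%, vertical axis from 0) at each corrected Tnfrsf9 count (horizontal axis, counts of 11 or more combined), for the tumour CD137 plus library on the left and the tumour CD137 minus library on the right. Grey bars at 0 are the cells without a value, 54.6% in the plus library and 84.0% in the minus library. The highest count was 24 in the plus library, inside the combined bar, and 7 in the minus library.

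Tnfrsf9 lies on the plus strand of chr4:150914562-150946102 (GRCm38, GENCODE). RefSeq gives 2 start sites, with promoter windows of 300 bases at chr4:150919905-150920204 and chr4:150927749-150928048 (GRCm38.p6, plus strand), printed here as the regulatory sequence of the gene that defines the split. The promoter of Il2ra, the high-affinity chain of the interleukin 2 receptor, at chr2:11642542-11642841 (plus strand) is shown with them because Il2ra is another activation-induced receptor that was higher in the positive cells. Capitals mark matches on either strand to the NFAT core GGAAA, the AP-1 site TGANTCA and the NF-kB consensus; both NF-kB matches of a window overlap each other.
Tnfrsf9 first start: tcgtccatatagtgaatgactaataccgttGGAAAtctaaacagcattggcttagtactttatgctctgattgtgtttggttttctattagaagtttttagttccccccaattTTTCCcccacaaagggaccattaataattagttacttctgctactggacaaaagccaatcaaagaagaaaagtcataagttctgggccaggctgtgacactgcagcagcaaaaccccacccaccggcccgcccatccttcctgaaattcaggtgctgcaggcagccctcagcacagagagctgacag
Tnfrsf9 second start: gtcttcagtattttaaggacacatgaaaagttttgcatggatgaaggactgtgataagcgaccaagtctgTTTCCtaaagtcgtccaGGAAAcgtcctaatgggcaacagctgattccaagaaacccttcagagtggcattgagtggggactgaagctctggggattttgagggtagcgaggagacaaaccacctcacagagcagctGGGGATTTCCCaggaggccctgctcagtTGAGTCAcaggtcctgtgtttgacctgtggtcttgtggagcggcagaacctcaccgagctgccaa
Il2ra: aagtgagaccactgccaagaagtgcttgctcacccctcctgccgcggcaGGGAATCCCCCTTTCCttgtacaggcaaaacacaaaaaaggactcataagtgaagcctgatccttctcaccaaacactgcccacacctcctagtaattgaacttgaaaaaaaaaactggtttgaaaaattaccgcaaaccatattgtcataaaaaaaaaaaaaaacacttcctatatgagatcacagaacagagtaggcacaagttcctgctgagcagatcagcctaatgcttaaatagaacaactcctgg
The first Tnfrsf9 window holds 2 NFAT cores and no match to the others. The second holds 3 NFAT cores, 1 AP-1 site and 2 overlapping NF-kB matches, one NFAT core lying within the NF-kB run. The Il2ra window holds 1 NFAT core and 2 overlapping NF-kB matches. Over the 32851 promoter windows of the RefSeq table, 61.3% hold the NFAT core, 7.81% the AP-1 site and 4.51% the NF-kB consensus. Windows of genes higher in the positive cells held the NF-kB consensus in 5.58% of cases, those of lower genes in 7.87% and those of all measured genes in 5.20%, and 1197 of the 1503 higher genes and 212 of the 272 lower genes matched a window. A match is a string of letters and not a shown binding site.

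The sides differed in complexity. Positive cells had a median of 1579 genes and 3951 corrected counts, against 1181 genes and 3516 corrected counts in negative cells. Fewer than 1000 genes were seen in 18.1% of positive and 30.9% of negative cells. Ribosomal protein genes took a median of 25.1% of the counts of positive cells and 31.3% of those of negative cells, and mitochondrial genes took 1.22% and 1.49%. In the library as a whole, cells under 1000 genes had a Tnfrsf9 value in 32.8% of cases and the others in 49.6%. In those shallow cells 38.6% of all values equalled 2 and 32.3% equalled 1, whereas in the others 13.8% equalled 2 and 69.3% equalled 1, so a corrected count of 2 often stood for the lowest value of a shallow cell. How far this gap in complexity moves the ratios was measured by weighting the negative cells to the gene numbers of the positive ones. Weighted values are given for the numbers of genes called and for the inhibitory receptor, glycolysis and cycling lists. The other lists are given unweighted, and their weighted values can differ.

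Over all genes the positive cells had higher levels of most inhibitory receptor, costimulatory receptor and glycolysis genes and of several chemokine genes, and lower levels of most genes of naive and stem-like cells. Of 5671 measured genes, 1503 were higher (26.5%) and 272 lower (4.8%) in positive cells, together 31.3%. A gene was measured when it reached 20 CPM and a value in 5% of cells on at least 1 side and had a value on both, and it counted as higher or lower once its log2 ratio of summed levels (pseudocount 1 CPM) reached 0.5 in size. The median gene stood at 0.27, so the whole distribution was shifted towards the positive side. Relative to that median 592 genes were higher (10.4%) and 618 lower (10.9%), together 21.3%, and with negative cells weighted by gene number 518 were higher and 446 lower. With that weighting the median gene stood at 0.04. The directions of the gene groups below are those of the unweighted ratios. The list medians are to be read against 0.27, and the counts of higher and lower members against 26.5% and 4.8%, over all measured genes. Counts relative to the median are to be read against 10.4% and 10.9%. Those within cells with a Pdcd1 value are to be read against 17% and 4.03%, and those between Tnfrsf9 count classes against 9.62% and 2.22%.

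**Figure D2:**
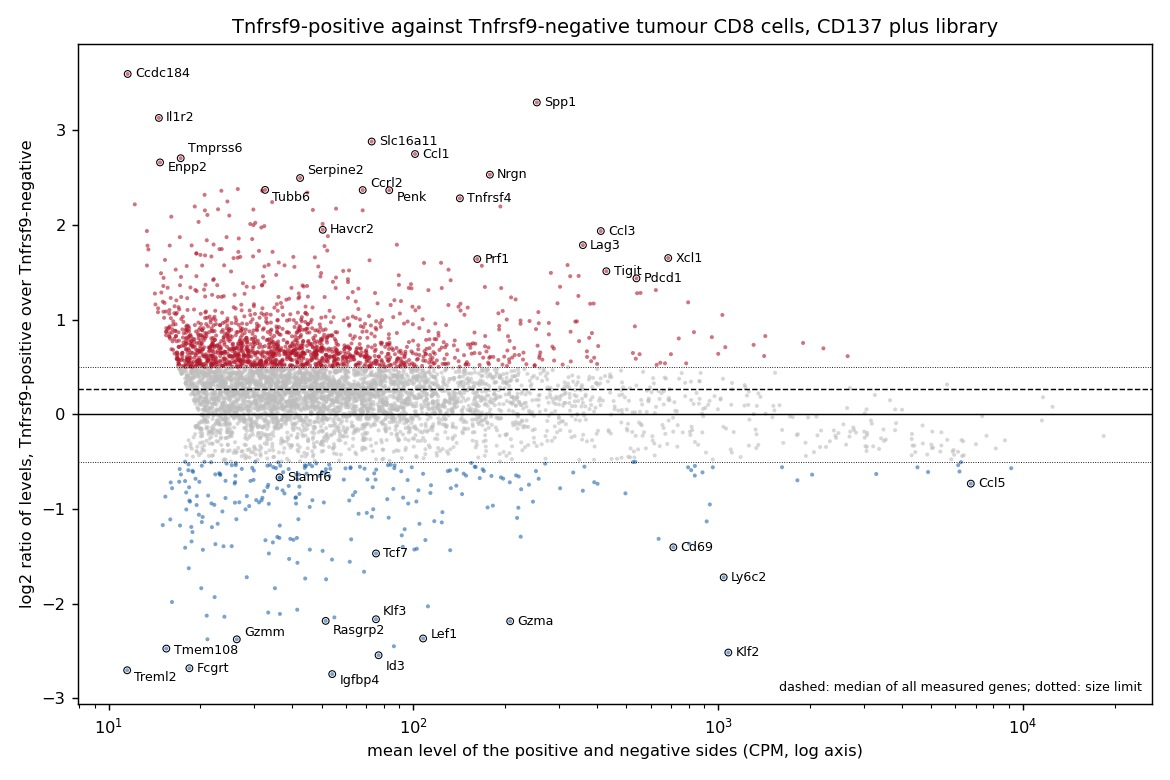
Log2 ratio of levels, positive over negative cells (vertical axis), against the mean level of the sides (CPM, log axis), 1 point per measured gene. Red points are the 1503 higher and blue points the 272 lower genes, the dashed line is the median of 0.27, and Klf2 stands out among the abundant genes at the bottom and Spp1 at the top.

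The gene furthest above 0 among all measured was Ccdc184, a little-studied coiled-coil gene, with 22.2 CPM in positive cells and 0.915 CPM in negative cells (log2 ratio 3.60). Spp1, which encodes the secreted phosphoprotein osteopontin, had 462 CPM in positive cells and 46.1 CPM in negative cells (3.30). Its transcripts were unevenly spread: 20.4% of positive cells had a value, with a median count of 3 among them and a highest count of 130, against 5.53% of negative cells with a median of 2 and a highest count of 21. The decoy receptor for interleukin 1, Il1r2, had 27.0 CPM and 2.20 CPM in positive and negative cells (3.13). Slc16a11, a monocarboxylate transporter, had a value in 24.9% of positive and 4.07% of negative cells (2.88). The chemokine gene Ccl1, which attracts CCR8-bearing cells, stood at 177 CPM in positive and 25.4 CPM in negative cells (2.75).

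The other genes of the 12 furthest above 0 were Tmprss6, a membrane serine protease (2.71), Enpp2, which encodes the lysophosphatidic acid producing enzyme autotaxin (2.66), Nrgn, neurogranin, a calmodulin-binding protein (2.53), Serpine2, a secreted protease inhibitor (2.50), Tubb6, a beta tubulin (2.37), Ccrl2, an atypical receptor for chemerin (2.37), and Penk, the enkephalin precursor (2.37). Among them Nrgn was the most widely detected, in 45.0% (42.2 to 47.8) of positive cells and 9.93% (8.47 to 11.6) of negative cells. Its level was 305 CPM in positive and 51.8 CPM in negative cells. Each of these 12 genes was also higher when the comparison was restricted to cells with a Pdcd1 value. Of the lower genes named next, 6 were lower there and the other 5, with ratios below -1, did not reach the minimum to be measured.

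The lower end included genes of circulating and naive cells. Klf2, the transcription factor that keeps S1pr1 switched on in recirculating T cells, had 320.2 CPM in positive cells and 1839 CPM in negative cells (-2.52), with a value in 31.4% (28.9 to 34.1) of positive and 71.1% (68.8 to 73.4) of negative cells. Lef1, a partner of TCF-1 in early T cells, had 34.2 CPM and 181 CPM in positive and negative cells (-2.37). Id3, an inhibitor of E proteins found in stem-like and memory cells, had 21.8 CPM in positive and 132 CPM in negative cells (-2.55). Igfbp4, a growth factor binding protein that marks naive CD8 cells in mice, was furthest below 0, with 13.3 CPM in positive and 94.99 CPM in negative cells (-2.75).

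Outside the naive genes, the granule protease Gzma had 74.1 CPM in positive and 341 CPM in negative cells (-2.19), and its relative Gzmm 7.81 CPM and 44.8 CPM in positive and negative cells (-2.38). Rasgrp2, the activator of Rap1 that switches on integrins, stood at -2.18, and Klf3, a Krüppel-like repressor, at -2.17. Treml2 (-2.71), Fcgrt, the neonatal Fc receptor (-2.68), and Tmem108 (-2.48) were lower too, each with fewer than 5 CPM in positive cells. Gzma was carried by few cells on either side, 5.21% of positive and 12.3% of negative cells.

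Inhibitory receptors were the list with the highest median. Of 16 genes, 14 were measured, 12 of these were higher in positive cells and none lower, with a median log2 ratio of 1.42 against 0.27 for all measured genes. Pdcd1, the gene of PD-1, had 788 CPM in positive and 290.5 CPM in negative cells (1.44), with a value in 77.9% (75.5 to 80.1) of positive and 36.9% (34.4 to 39.4) of negative cells. Lag3, which binds MHC class II, had 559 CPM and 161 CPM in positive and negative cells (1.79), and was detected in 71.5% of positive and 24.1% of negative cells. Havcr2, the gene of TIM-3, had 80.7 CPM in positive and 20.1 CPM in negative cells (1.95). Thus the most frequent receptors separated the sides by shares as well as by levels.

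Tigit, which competes with CD226 for CD155, stood at 637 CPM in positive and 223 CPM in negative cells (1.51). The widest ratio of the list was that of Cd200, a ligand for the inhibitory receptor CD200R, with 41.0 CPM in positive and 8.79 CPM in negative cells (2.10). Its receptor gene Cd200r1 was higher too (1.79), and so were Cd244a (1.68), Lilrb4a (1.40), Ctla4 (1.21), Cd160 (1.16), Klrc1 (0.96) and Entpd1, the ectonucleotidase CD39 (0.87). The 2 measured members within the limit were Cd96 (0.46) and Vsir, the gene of VISTA (-0.27). The list kept a median of 1.21 when negative cells were weighted by gene number and of 0.82, over the same genes, within cells that had a Pdcd1 value.

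These receptors were also counted per cell. Whether they occurred together beyond their single shares was not tested. Counting Pdcd1, Havcr2, Lag3, Tigit and Ctla4, positive cells had a mean of 2.96 detected of 5, and negative cells 1.23. At least 3 of the 5 were detected in 69.0% (66.4 to 71.6) of positive and 19.2% (17.2 to 21.3) of negative cells. Read the other way, Tnfrsf9 was detected in 12.4% of cells where none of the 5 was detected, 22.5% with 1, 44.5% with 2, 67.2% with 3, 81.4% with 4 and 83.0% with 5. From 0 to 4 receptors the counting intervals of neighbouring shares did not overlap, and the last ones did (77.6 to 84.8 with 4, 75.5 to 88.9 with 5). The median number of genes per cell was 1179, 1086, 1112, 1468, 1765.5 and 1810 in the same order, and its part in the upper steps was not tested.

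Of 14 transcription factors linked to T cell exhaustion 11 were measured, 9 higher and none lower, with a median of 0.77. Relative to the median of all genes 6 of the 11 were higher. Within cells with a Pdcd1 value 2 of 11 were higher (median 0.33), against 17% of all genes measured there. Between 3 or more and 1 to 2 Tnfrsf9 counts 1 of 11 was higher, against 9.62%. Both counts lay near the share of all genes. Rbpj, the effector of Notch signalling, had the highest ratio among them, with 129.7 CPM in positive and 49.6 CPM in negative cells (1.37). Tox, which establishes the exhausted state in mouse CD8 cells, had 268 CPM in positive and 125 CPM in negative cells (1.09), and a value in 52.2% of positive and 24.8% of negative cells. Nr4a2, an orphan nuclear receptor induced by antigen receptor signalling, had 1393 CPM in positive and 672 CPM in negative cells (1.05). Ikzf2, the gene of Helios, stood at 1.21. Nr4a1, another member of that receptor family, had 379 CPM and 428 CPM in positive and negative cells (-0.17), so the Nr4a genes did not move as a block.

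Among other costimulatory receptors the TNF receptor family genes next to CD137 in function stood highest. Tnfrsf4, the gene of OX40, had 236 CPM in positive and 47.8 CPM in negative cells (2.28), with a value in 40.4% (37.7 to 43.2) of positive and 9.13% (7.72 to 10.7) of negative cells. Tnfrsf18, the gene of GITR, had 278 CPM in positive and 109.8 CPM in negative cells (1.33). Crtam (1.09) and Icos (1.07), receptors that appear after activation, were higher as well, and 7 of the 11 measured genes of this list were, with a median of 0.56 (4 of 11 higher relative to the median of all genes). One was lower: Slamf6, a receptor kept by stem-like exhausted cells, with 27.9 CPM in positive and 44.8 CPM in negative cells (-0.67). Cd28, the costimulatory receptor of resting cells, had 229.8 CPM and 240.5 CPM in positive and negative cells (-0.07).

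The ligand and the signalling parts of CD137 differed less. Tnfsf9, the ligand gene, had 34.6 CPM in positive and 18.5 CPM in negative cells (0.87). Birc2, the ubiquitin ligase cIAP1 that works with TRAF2, had 95.7 CPM in positive and 49.4 CPM in negative cells (0.94), and Traf5 stood at 0.55. Traf1, an adaptor that CD137 binds, had 207 CPM in positive and 164 CPM in negative cells (0.34), within the size limit. In all 3 of 8 measured genes were higher and none lower, with a median of 0.36. Of the NF-kB subunits and feedback genes, 4 of 15 were higher and 1 lower, with a median of -0.03. The subunits Nfkb2 (0.91), Rel (0.75) and Nfkb1 (0.60) and the inhibitor Nfkbie (0.61) were higher, and the atypical inhibitor Nfkbid was lower (-0.75). Relative to the median of all genes only 1 gene of this list was higher and 5 were lower.

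Survival genes of the BCL2 family were mixed. Bcl2, which protects resting and memory cells, had 81.5 CPM in positive and 146 CPM in negative cells (-0.83), and the killer gene Bbc3, which encodes PUMA, was lower too (-1.19). Bcl2a1d had 247 CPM in positive and 96.5 CPM in negative cells (1.35), Bcl2a1b stood at 0.87 and Bcl2l1, the gene of BCL-XL, at 0.69. Bcl2a1b and Bcl2a1d are near-identical copies, so the division of reads between them is uncertain. Bak1 was higher at 0.75, which made 4 higher and 2 lower of 10 measured, with a median of 0.44. Against the median of all genes 2 were higher and 2 lower.

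Genes that antigen receptor signals induce fell into separate groups. Higher were Dusp4, a phosphatase of MAP kinases, with 186 CPM in positive and 60.6 CPM in negative cells (1.60), the cAMP-responsive factor Crem with 435 CPM and 170.4 CPM in positive and negative cells (1.35), and Rgs16, a brake on G protein signals, with 789 CPM and 324 CPM (1.28). Lower were the early activation antigen Cd69, with 390.1 CPM in positive and 1035 CPM in negative cells (-1.41), the phosphatase Dusp2, with 574 CPM in positive and 1259.5 CPM in negative cells (-1.13), and Myc (-1.11). In this list 6 of 15 measured genes were higher and 3 lower, with a median of 0.38. Relative to the median of all genes 5 were higher and 5 lower. Of the AP-1 factors 4 of 9 were lower and 2 higher, with a median of -0.19. Jun had 448 CPM in positive and 1157 CPM in negative cells (-1.37) and Fos 365 CPM and 911 CPM in positive and negative cells (-1.32). Fosl2 (0.72) and Atf3 (0.64) were higher, but relative to the median of all genes no AP-1 factor was.

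The fast-response genes Fos, Jun, Dusp1 and the heat shock genes are also induced while tissue is dissociated. Of 17 measured genes on the heat shock and dissociation list, 8 were lower in positive cells and none higher, with a median of -0.37. Hspa1a, an inducible HSP70 gene with the near-identical copy Hspa1b, had 76.9 CPM in positive and 171 CPM in negative cells (-1.14), and Zfp36, which destabilises cytokine transcripts, had 639 CPM and 1239 CPM in positive and negative cells (-0.95). The part of dissociation in the lower Fos, Jun and Cd69 was not tested.

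Cytotoxic genes did not go one way. Prf1, the pore-forming protein perforin, had 246 CPM in positive and 78.2 CPM in negative cells (1.64) and a value in 38.0% of positive and 18.3% of negative cells. Serpinb6b (0.98) and Serpinb9 (0.95), protease inhibitors that include the granzyme B inhibitor, and Nkg7 (0.61), a granule membrane protein, were higher. Gzmb, the main granule protease of effector cells, had 262 CPM in positive and 258 CPM in negative cells (0.03). Gzmk, carried by early memory-like tumour cells, had 117 CPM in positive and 233 CPM in negative cells (-0.98). With Gzma and Gzmm this made 4 higher and 3 lower of 12 measured, and a median of 0.06.

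Chemokine and cytokine genes had a median of 0.86, with 7 of 13 measured members higher and 2 lower. Against the median of all genes 7 were higher and 4 lower. Xcl1, the ligand that draws XCR1-bearing dendritic cells, had 1041 CPM in positive and 331 CPM in negative cells (1.65), and a value in 42.7% of positive and 27.9% of negative cells. Ccl3, which attracts macrophages and activated T cells, had 654 CPM and 170.0 CPM in positive and negative cells (1.94). Csf1, the macrophage growth factor, had 32.1 CPM in positive and 6.22 CPM in negative cells (2.20). Ifng, the gene of interferon gamma, had 497 CPM in positive and 274 CPM in negative cells (0.86). Against these, Ccl5 had 5066 CPM in positive and 8421 CPM in negative cells (-0.73), and Tnf 49.2 CPM and 66.4 CPM (-0.43). The summed level of the list was 9422 CPM in positive and 10563 CPM in negative cells, with Ccl5 the largest part on both sides. Over cells with a Pdcd1 value the list's median was -0.02, and Ifng stood at 0.03 there.

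Naive and stem-like genes had the lowest median of the lists, -1.57, with 14 of 16 measured members lower and none higher. Beside Klf2, Lef1, Id3 and Igfbp4, Tcf7, the gene of TCF-1, had 39.5 CPM in positive and 111 CPM in negative cells (-1.47), and a value in 9.78% of positive and 27.9% of negative cells. S1pr1, the receptor that lets cells leave tissue, had 15.4 CPM in positive and 67.7 CPM in negative cells (-2.07). Il7r, the interleukin 7 receptor chain of resting cells, stood at -1.33, and the chromatin organiser Satb1 at -1.66. The chemokine receptor Ccr7 had 374 CPM and 519 CPM in positive and negative cells (-0.47) and Actn1 73.1 CPM and 58.7 CPM (0.31), both within the limit.

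Cytokine receptor genes had values in both directions. Il2ra had 34.9 CPM in positive and 7.32 CPM in negative cells (2.11), and Il2rb, the shared beta chain for interleukins 2 and 15, had 541 CPM in positive and 239.6 CPM in negative cells (1.17). Il10ra (1.03), Il18rap (1.02), Il18r1 (0.75) and Il21r (0.70) were higher, and Socs3, a feedback inhibitor of cytokine signals, was lower, with 54.1 CPM in positive and 147 CPM in negative cells (-1.43). Of 14 measured genes 6 were higher and 3 lower, with a median of 0.26, close to that of all genes, relative to which 4 were higher and 4 lower. Residency and homing genes had 5 higher and 3 lower of 12 and a median of 0.33. Among them Cxcr6, which holds cells in tumour niches, had 479.9 CPM in positive and 174 CPM in negative cells (1.46), whereas the gut-homing integrin chain Itgb7 had 43.3 CPM in positive and 179.9 CPM in negative cells (-2.03) and Cxcr4 stood at -1.41.

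Effector and memory genes were divided as well, 6 higher and 5 lower of 13 measured, with a median of 0.44. Cx3cr1, a receptor of effector cells, had 39.9 CPM in positive and 15.9 CPM in negative cells (1.27), the NK receptor chain Klrd1 had 1107 CPM and 487 CPM in positive and negative cells (1.18), and the effector factor Tbx21 stood at 0.78. Ly6c2, found on circulating memory cells, had 484 CPM in positive and 1601 CPM in negative cells (-1.72), with reads that its near-identical copy Ly6c1 could share, and Eomes stood at -0.64. Klrg1, a mark of terminal effector cells, was too rare to be measured, with a value in 0.802% of positive and 4.73% of negative cells.

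Of 16 measured glycolysis genes 12 were higher and none lower, with a median of 0.70 and a lowest ratio of 0.37. Relative to the median of all genes 4 were higher, and within cells with a Pdcd1 value 6 were. The lactate exporter Slc16a3 had 48.4 CPM in positive and 13.9 CPM in negative cells (1.73), the enzyme gene Tpi1 412 CPM and 182 CPM in positive and negative cells (1.17), and Gapdh 2739 CPM in positive and 1689 CPM in negative cells (0.70). Weighted by gene number the median was 0.51. Nutrient uptake genes gave 4 higher of 8 and a median of 0.45, among them the amino acid transporter Slc7a6 (1.03) and the transferrin receptor Tfrc (0.53). Set against the median of all genes, 1 of the 8 was higher and 2 were lower. Oxidative phosphorylation genes lay closer to the median gene, with 3 of 27 higher, none lower and a median of 0.34. None of the 27 passed the limit relative to the median of all genes.

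Cycling genes gave mixed values. Of 19 measured, 3 were higher and 1 lower, with a median of 0.06 that became -0.60 when negative cells were weighted by gene number. Mki67 had 24.3 CPM in positive and 23.6 CPM in negative cells (0.04), and Top2a, a topoisomerase of dividing cells, stood at 0.08. Cells with a value for either of these were 16.8% (14.8 to 19.0) of positive and 11.5% (9.90 to 13.2) of negative cells, and 12.9% and 9.80% after every cell was thinned to 2900 corrected counts. Interferon-stimulated genes were lower in 9 of 16 measured cases and higher in none, with a median of -0.58: Irf7, a master factor of interferon responses, had 52.6 CPM in positive and 113 CPM in negative cells (-1.09), and Usp18 (-1.16), Ifit3 (-1.14) and Bst2 (-0.97) were lower too.

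Lists included as a baseline were closer to 0, apart from the ribosomal proteins. None of 14 genes of MHC class I presentation passed the limit (median 0.10), and 1 of 13 housekeeping genes did, Pgk1 (0.81), which is also a glycolytic enzyme (median 0.08). Of 27 ribosomal protein genes 3 were lower and none higher (median -0.34). All 27 ratios were below 0, the highest at -0.16, and relative to the median of all genes 19 were lower. Their summed level was 109568 CPM in positive and 139547 CPM in negative cells, and within cells with a Pdcd1 value none of the 27 passed the limit. Of the T cell receptor and CD8 genes, Cd8a (0.82), Zap70 (0.65) and Cd3g (0.62) were higher and Lat (-0.50) was lower of 14 measured, while Cd8b1 had 1433 CPM in positive and 1426 CPM in negative cells (0.01). Cd8a and Cd8b1 also served to choose the cells.

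**Figure D3:**
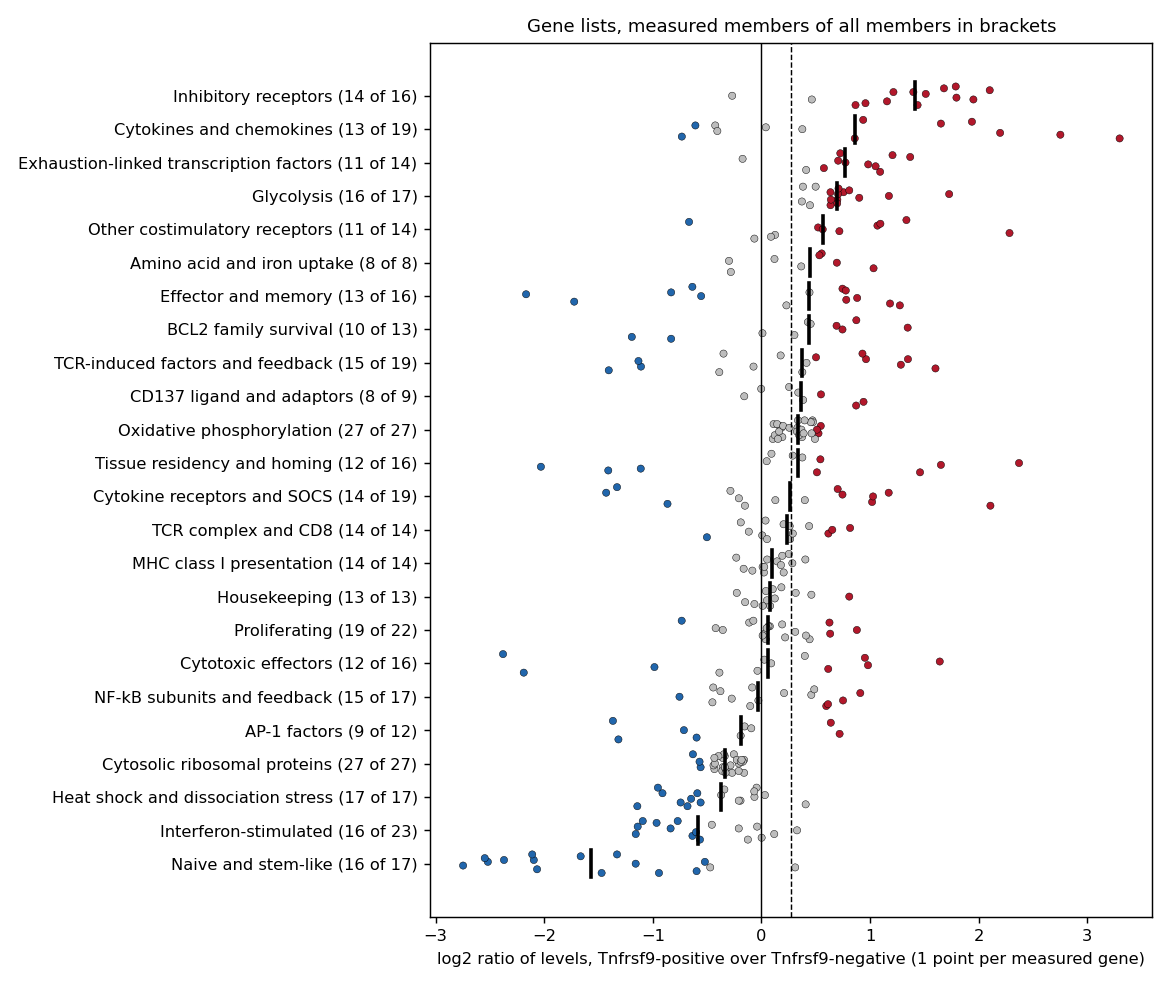
Log2 ratio of levels, positive over negative cells (horizontal axis), for the measured members of 24 gene lists, 1 point per gene, with a black bar at each list's median and a dashed line at the median of all measured genes. Red is higher and blue lower by at least 0.5; inhibitory receptors lie at the top with a median of 1.42 and naive and stem-like genes at the bottom with -1.57.

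Combinations of genes were compared as shares of cells. Pdcd1 and Havcr2 together, a pair seen on terminally exhausted cells, were detected in 18.8% (16.7 to 21.1) of positive and 3.47% (2.60 to 4.52) of negative cells, and of the 287 cells with the pair 81.9% had a Tnfrsf9 value. Tcf7 without Havcr2 was found in 8.50% (7.01 to 10.2) of positive and 27.3% (25.1 to 29.7) of negative cells, and of those 516 cells 20.5% had a Tnfrsf9 value. Tcf7 with Pdcd1, a combination of stem-like exhausted cells, did not differ beyond its counting intervals, with 5.77% (4.54 to 7.22) of positive and 6.27% (5.09 to 7.61) of negative cells. Lef1 with Ccr7 was found in 5.05% (3.90 to 6.42) of positive and 24.5% (22.3 to 26.7) of negative cells. After thinning to equal totals these shares were 14.1% and 2.67% for Pdcd1 with Havcr2, 7.78% and 23.1% for Tcf7 without Havcr2, 4.49% and 4.20% for Tcf7 with Pdcd1, and 4.17% and 19.6% for Lef1 with Ccr7, positive cells first in each pair of values.

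Markers of other cell types were present at low levels on both sides. Of 8 melanoma genes 7 were in the table, with a value for any in 6.34% of positive and 6.20% of negative cells and summed levels of 49.2 CPM and 48.7 CPM. B cell genes (6 of 7 in the table) summed to 327 CPM in positive and 488 CPM in negative cells, with Ms4a1 at 0 on both sides. Macrophage and monocyte genes (6 of 8) summed to 256 CPM in positive and 177 CPM in negative cells and were found in 51.2% and 32.3% of cells, of which Cst3 made up 227 CPM and 152 CPM. Dendritic cell genes (5 of 6, Flt3 at 0 in positive cells) summed to 214 CPM and 188 CPM, of which Irf8, also expressed by activated CD8 cells, made up 194 CPM and 87.5 CPM in positive and negative cells. The other dendritic cell genes together were therefore lower in positive cells. NK cell genes (5 of 6 in the table) summed to 198.5 CPM in positive and 200.04 CPM in negative cells, with a value for any in 39.1% and 21.2%. Of the 3 measured, 1 was higher and 1 lower, with ratios from -2.15 to 1.14. CD4 and regulatory T cell genes (4 of 4) summed to 129 CPM and 59.1 CPM, nearly all of it Ikzf2. Fibroblast and endothelial genes (3 of 6, Cdh5 at 0 in positive cells) summed to 11.4 CPM and 23.1 CPM. Of 4 neutrophil genes none was in the table, so neutrophils could not be assessed. With cells carrying Cd79a, Ms4a1, Lyz2, C1qa, Siglech, Mlana, Pmel or Dct left out, 1559 genes were higher and 279 lower.

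Among positive cells, those with 3 or more Tnfrsf9 counts went further in the same direction for a part of the genes. Of 5821 measured genes 560 were higher (9.62%) and 129 lower (2.22%) than in cells with 1 to 2, together 11.8%, with a median of 0.12. Relative to that median 308 were higher (5.29%) and 224 lower (3.85%), together 9.14%, and with the lower class weighted by gene number 259 were higher and 200 lower. Of the 1503 genes higher in positive cells, all measured here, 292 were higher again and 3 were lower. Of the 208 lower genes that were measured here, 80 were lower again and 1 was higher. The 652 cells also helped to choose these genes as part of the positive side, so the counts are not independent of the first comparison. The comparison is between 652 cells with a median of 1711 genes and 595 cells with a median of 1436.

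Inhibitory receptors had 8 of 15 measured genes higher at 3 or more counts and none lower (median 0.51), among them Havcr2 with 106 CPM at 3 or more and 52.3 CPM at 1 to 2 (log2 ratio 1.00) and Lag3 with 677 CPM and 426 CPM (0.67). Prf1 had 336 CPM at 3 or more and 145 CPM at 1 to 2 (1.21), and Slc16a3 65.2 CPM and 29.5 CPM (1.12). At least 3 of the 5 inhibitory receptors were detected in 78.5% (75.2 to 81.6) of cells with 3 or more and 58.7% (54.6 to 62.6) of cells with 1 to 2. Naive and stem-like genes had 11 of 15 lower and none higher (median -1.14): Klf2 had 126 CPM at 3 or more and 538 CPM at 1 to 2 (-2.09) and Tcf7 24.8 CPM and 55.9 CPM (-1.14). Slamf6 was further from 0 here than between positive and negative cells, with 14.8 CPM at 3 or more and 42.5 CPM at 1 to 2 (-1.46).

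Some genes of the positive cells had no second step. Ccl1 had 186 CPM at 3 or more and 167 CPM at 1 to 2 (0.16), Xcl1 1112 CPM and 961 CPM (0.21), Tox 284 CPM and 249 CPM (0.19), Cd160 120.4 CPM and 112 CPM (0.10), and Il1r2 26.0 CPM and 28.2 CPM (-0.11). Cycling genes had 6 of 19 lower at 3 or more, none higher and a median of -0.33, against 0.06 between positive and negative cells without weighting and -0.60 with it. Cells with Mki67 or Top2a were 17.3% (14.5 to 20.5) at 3 or more and 16.3% (13.4 to 19.5) at 1 to 2. After thinning these shares were 12.7% and 13.1%. Stmn1, a microtubule regulator of dividing cells, had 95.2 CPM at 3 or more and 156 CPM at 1 to 2 (-0.70), and the linker histone Hist1h1b 21.2 CPM and 64.0 CPM (-1.55). Interferon-stimulated genes had 5 of 15 lower and none higher.

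The genes furthest above 0 in this comparison were mostly low in level: Ttpal (1.59), Ankrd16 (1.45), Ccdc184 (1.44), Enpp2 (1.36), Lnpk (1.26), Tmbim1 (1.23), Lrrc57 (1.22) and Prf1. All of them except Prf1 had fewer than 40 CPM at 3 or more. Furthest below were Igfbp4 (-2.30), Rflnb (-2.29), Klf2, Ptgds (-1.88), Id3 (-1.71), Hist1h1b and S1pr1 (-1.55). Ankrd16, Lnpk and Lrrc57 did not differ by the limit between positive and negative cells (0.04, -0.06 and 0.31), and Ptgds had 32.1 CPM in positive and 33.3 CPM in negative cells.

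By single counts the 2 kinds of course could be followed over cells with 0, 1, 2, 3, 4 and 5 or more Tnfrsf9 counts. Lag3 had 161, 385, 463, 613, 558 and 768 CPM in that order, and Havcr2 20.1, 46.9, 57.1, 84.2, 104 and 120.4 CPM. Xcl1 had 331, 947, 972, 1086, 1095 and 1136 CPM, so most of its difference lay between 0 and 1. Klf2 had 1839, 655, 434, 149.7, 139 and 105 CPM, and Tcf7 111, 74.6, 39.5, 22.7, 28.3 and 24.6 CPM. Slamf6 stayed at 44.8, 43.1 and 42.0 CPM up to a count of 2 and then had 25.4, 18.8 and 6.55 CPM. Cells with a count of 2 had a median of 1189 genes, against 1540.5 at 1 and 1675 at 3, so the step at 2 compares cells of unlike complexity.

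**Figure D4:**
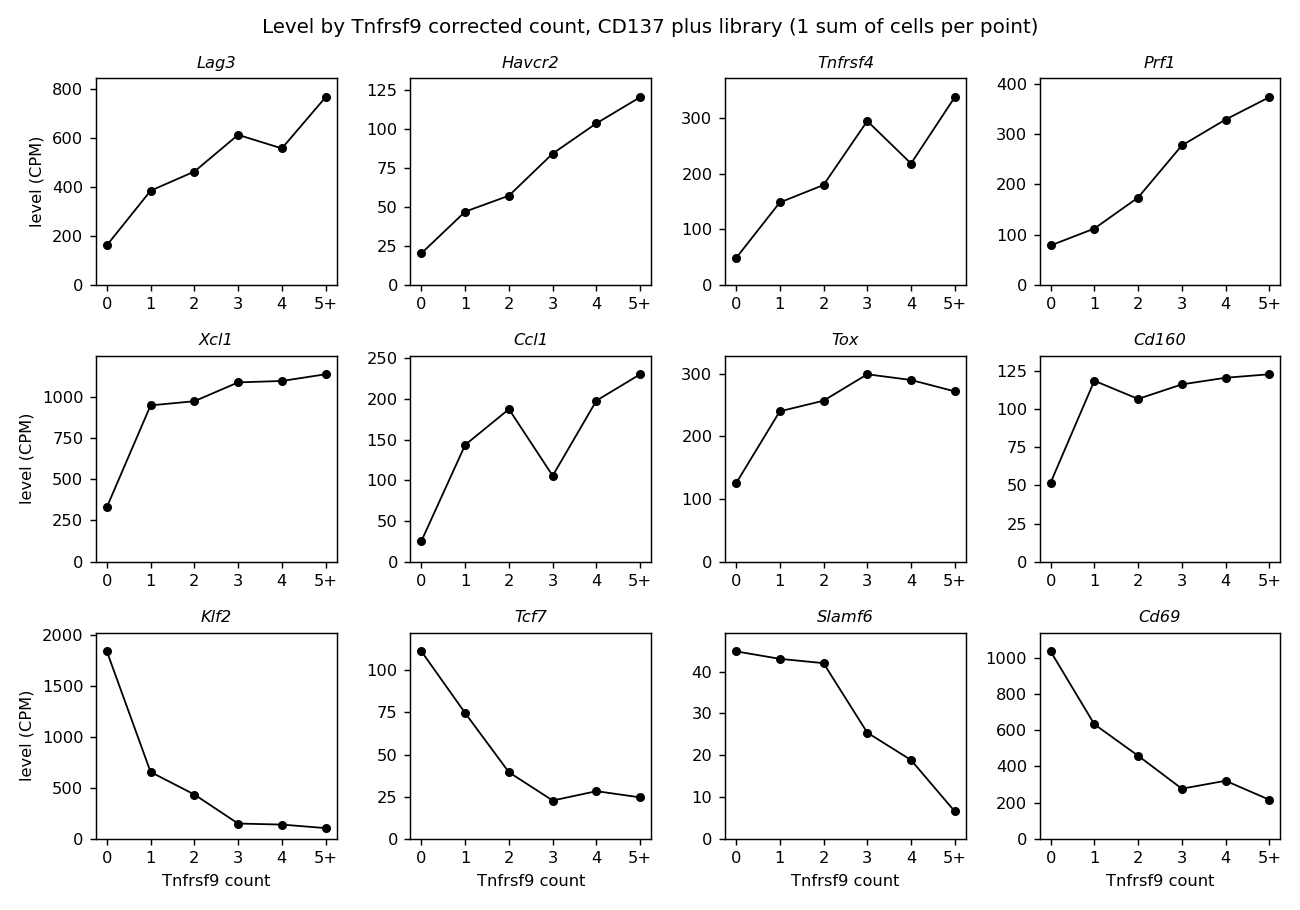
Level (CPM, vertical axes from 0) of 12 genes in cells with 0, 1, 2, 3, 4 and 5 or more corrected Tnfrsf9 counts (horizontal axes, low to high), each point the sum over the cells of a class of 1 library, with no replicate error. Havcr2 and Prf1 climb from class to class, Xcl1 and Cd160 reach most of their level at a count of 1, Ccl1 varies between the classes above 0, and Slamf6 declines after a count of 2. The values of these 12 genes were known when they were chosen.

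The differences were smaller, and mostly in the same direction, among cells that already had a Pdcd1 value. Between 971 positive and 553 negative cells of this kind, 991 of 5836 measured genes were higher (17%) and 235 lower (4.03%), together 21%, with a median of 0.17. Of the 1501 genes higher over all cells and measured here, 773 were higher again, and of 229 lower ones 141 were lower again. These cells are part of those by which the genes were chosen, so the counts are not independent. Havcr2 had 87.1 CPM in positive and 34.9 CPM in negative cells (1.30), Tnfrsf4 259.6 CPM and 93.0 CPM (1.47), and Klf2 193 CPM and 642 CPM (-1.73). Tox (0.43), Nr4a2 (0.41) and Bhlhe40 (0.33) no longer passed the limit. When cells with Ccr7 or Lef1 were left out, a step chosen after the data were seen, 894 positive and 680 negative cells remained. Of 5675 measured genes 1241 were higher (21.9%) and 235 lower (4.14%), together 26%, and Spp1 stood at 3.08, Klf2 at -2.26 and Tox at 0.65 there.

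The same split was made in the tumour CD137 minus library, whose cells shared the mice but not the library. Of 5890 measured genes 2642 were higher (44.9%) and 313 lower (5.31%) in its 200 positive cells than in its 1051 negative cells, together 50.2%, with a median of 0.44. Relative to that median 862 were higher (14.6%) and 913 lower (15.5%), together 30.1%, and with negative cells weighted by gene number 901 were higher and 480 lower. Positive cells there had a median of 2014.5 genes and negative cells 1373. Over the 5456 genes measured in both libraries, 1216 were higher in both, which was 86.5% of those higher in the plus library and 52.6% of those higher in the minus library. Lower in both were 190 genes, 73.4% and 65.7% of the lower genes of the plus and the minus library. Across these genes, which are not independent, Pearson's r of the log2 ratios was 0.84.

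All 11 of the 12 named higher genes that were measured in the minus library were higher there, against 44.9% of all measured genes. All 10 named lower genes measured there were lower, against 5.31%. A gene rare on 1 side can be measured there through its other side alone, so these counts describe directions and are no test. Spp1 had 961 CPM in positive and 101 CPM in negative cells of the minus library (3.23), Havcr2 94.8 CPM and 19.7 CPM (2.21), and Klf2 236 CPM and 1776 CPM (-2.90). Inhibitory receptors had 13 of 14 measured genes higher (median 1.71) and naive and stem-like genes 16 of 16 lower (median -2.11). At least 3 of the 5 inhibitory receptors were detected in 84.5% (78.7 to 89.2) of positive and 19.8% (17.4 to 22.3) of negative cells. Ccl1 differed most between the libraries among the named genes, with a ratio of 2.75 in the plus library and 0.52 in the minus library, where positive cells had 90.8 CPM and negative cells 63.0 CPM. Gzmb had 79.8 CPM and 133 CPM in positive and negative cells of the minus library (-0.73), against a ratio of 0.03 in the plus library. Whether the ratios differ between the libraries could not be tested with 1 library each.

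**Figure D5:**
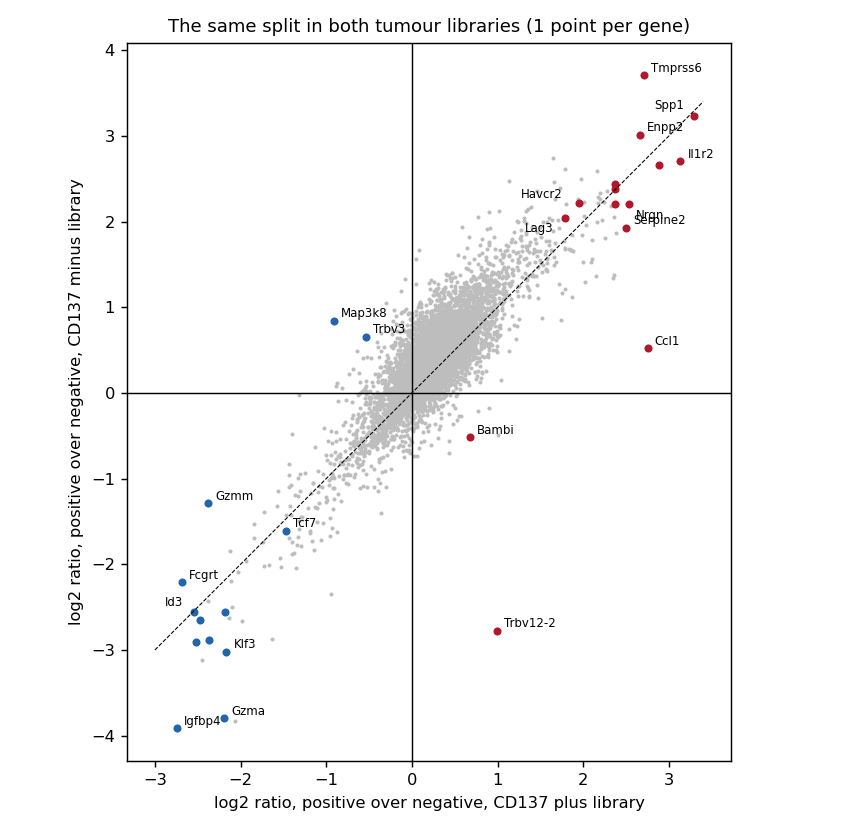
Log2 ratio of levels, positive over negative cells, in the tumour CD137 plus library (horizontal axis) against the same ratio in the tumour CD137 minus library (vertical axis), 1 point per gene measured in both, with the line of equal ratios dashed. Coloured points are the named genes and 7 others, most points far from 0 lie at the upper right or lower left, and Trbv12-2, Map3k8, Bambi and Trbv3 have ratios of opposite sign in the libraries.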

How the data were processed

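Single CD8 T cells were measured with 5′ RNA libraries. The genome mm10 and the programs Seurat 3.0 and Cell Ranger 3.0.2 are named, per the submitters' processing notes, without settings or cell filters. The table the authors deposited holds 12763 genes as natural log values: adding 1 to a whole number and taking the log gives each of them, within a relative tolerance of 1e-12. Those whole numbers have narrow totals per cell within a library, as counts corrected to a common depth would have; no label states this, and it rests on the values alone. They are called corrected counts, were recovered by the exponential and were given no count model, since cells of 1 library are not replicates. Cell barcodes of the tumour CD137 plus library were shared with the spleen CD137 minus (7), spleen CD137 plus (3) and tumour CD137 minus (1) libraries.

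Corrected counts were summed per side and scaled to CPM. The 12 measured genes furthest above and below 0 were named in the comparison of positive with negative cells, and 8 each way in the split by count. That choice left out unnamed gene models, sex-linked genes, receptor segments and genes of immunoglobulins, haemoglobins, mitochondria and ribosomes. Up to 4 members were to be named from each of 32 lists with 436 genes; further list members were named after their values were seen. One gene that the rule names, and the results that need it, are not reported here. The members, lists and rules were chosen with earlier results of these data known. No doublet caller was run. The scripts were tested on simulated data. In all, 16 alternatives were tried. The tools were matplotlib 3.10.9, pandas 2.3.3, scipy 1.17.1 and numpy 2.4.6 under Python 3.11.15.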

Additional observations from a re-analysis of the deposited data

Results flagged for a closer look

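In 4 genes the positive and negative cells differed by the size limit in opposite directions in the tumour libraries; the difference between the libraries was not tested, since each is 1 library. Bambi, a decoy receptor of the TGF-beta family, had 26.6 CPM in positive and 16.3 CPM in negative cells of the plus library (log2 ratio 0.68), and 15.97 CPM and 23.3 CPM in positive and negative cells of the minus library (-0.52). Map3k8, a kinase upstream of ERK, had 12.5 CPM in positive and 24.3 CPM in negative cells of the plus library (-0.91), and 24.9 CPM and 13.4 CPM in positive and negative cells of the minus library (0.84). Both genes lay near the minimum of 20 CPM in both libraries. The 200 positive cells of the minus library held 1002125 corrected counts in all, so the ratios there rest on few counts of either gene. The receptor segment Trbv12-2 had ratios of 0.99 in the plus library and -2.77 in the minus library. The segment Trbv3 had ratios of -0.54 in the plus library and 0.66 in the minus library. Its shares were 4.57% of positive and 7.07% of negative cells in the plus library. In the minus library they were 10% and 10.4%, so the higher level there was not seen in the share of cells. Related Trbv segments are close in sequence, so the division of reads between them is uncertain.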

How the results depend on the processing

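The number of genes called between positive and negative cells of the plus library, 1775, was 864 with a minimum of 50 CPM, 4382 with no minimum, 369 at a size limit of 1.0 and 964 with negative cells weighted by gene number. The split by count gave 689 calls, and 339 with a pseudocount of 10 CPM, 237 at 50 CPM, 2797 with no minimum, 68 at 1.0 and 459 when weighted. The minus library gave 2955, and 1422 at 50 CPM, 5580 with no minimum, 850 at 1.0, 1775 relative to the median, 1381 when weighted and 1769 within Pdcd1-positive cells. Counts under the other alternatives stayed within 1.5 times. In the plus library the named genes kept direction and size in all 367 values, and of the list medians past the size limit only that of cytokines changed sign (-0.016 within Pdcd1-positive cells); medians near 0, such as those of cycling, cytotoxic, MHC class I and NF-kB genes, changed sign under some alternatives. Leaving out cells with Ccr7 or Lef1 was an alternative chosen after seeing the data. Ptgds stood at 1.22 when counts of 2 or more were set against 1. In the minus library Ccl1 stood at -0.62 when weighted, -1.96 without cells with Ccr7 or Lef1, -0.16 within Pdcd1-positive cells and -0.53 at counts of 2 or more. There, list medians past the size limit changed sign for effector and memory genes (-0.064 within Pdcd1-positive cells), residency genes (-0.14 within Pdcd1-positive cells) and cycling genes (-0.55 when weighted, -0.20 without cells with Ccr7 or Lef1). The causes were not tested. Fewer genes pass a higher minimum or size limit by construction. No paired analysis was possible because each group is 1 library, and for the same reason no replicate could be left out.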

Other observations

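The share of cells with a value for a T cell receptor beta segment is a readout that the gene lists did not cover. Trbv12-1 was detected in 17.9% of positive and 11.5% of negative cells of the plus library, and Trbv29 in 15.5% of positive and 12.1% of negative cells. Trbv13-3 was detected in 3.93% of positive and 7.80% of negative cells, Trbv31 in 1.20% and 3.20%, and Trbv26 in 1.28% and 3.13% of positive and negative cells. In the minus library Trbv4 was detected in 25.5% of positive and 4.57% of negative cells, against 4.25% and 2.53% of positive and negative cells of the plus library. The mice were pooled and no cell carries a mouse label, so mouse and side cannot be told apart.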
